A study of Mus musculus with 16 samples.

Results

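T1α (gene symbol Pdpn) is a small mucin-type membrane glycoprotein of the apical surface of type I cells, the flat epithelial cells of the alveolar wall. Type I cells cover most of the gas exchange surface, and type II cells, which make surfactant, are the other epithelial cell of the alveolus. Both arise from distal epithelium shortly before birth. Mice without T1α die at birth, and the arrays ask which genes differ in their lungs while the sacs are forming.

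The comparison covers 10 of the 16 arrays of the study, taken by their sample titles: 5 T1α(-/-) fetal lungs, arrays A to E, and 5 T1α(+/+) fetal lungs, arrays I to M, all mice at E18.5. The null allele is carried in every tissue, fetuses of both genotypes came from matings of heterozygotes, and no litter, sex or batch is given in the sources used here. Whole-lung RNA was hybridized to the Affymetrix Murine Genome U74Av2 array, whose probe sets give 1 signal each, background-corrected and scaled per array by Microarray Suite 5.0 (MAS 5.0). Nothing in the sources says that arrays share an animal or a preparation, and p-values measure only the spread between these arrays.

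Of 12488 probe sets, 5879 were tested with limma on log2(signal + 16), those whose median signal in at least 1 genotype exceeded 53.4. One probe set was kept per gene, and genes of the paper's lists and others that it names for E18.5 were left out. This left 4420 genes, and 120 lists of gene families, pathways and cell markers were laid over them. A list is described by its counts and by its median log2 fold change, T1α(-/-) over T1α(+/+), beside the same for all 4420 genes. No test was made of a list as a whole. In whole-lung RNA, fewer cells of a type and less RNA per cell cannot be told apart.

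T1α itself had signals of 1.40, 16.5, 19.8, 21.2 and 8.60 in T1α(-/-) lungs, against 112, 114, 60.2, 136 and 126 in T1α(+/+) lungs. Every null array lay below every wild-type array, and wild-type array K was the lowest of its group. The log2 fold change was -2.10 (standard error 0.28, limma adjusted p = 0.00938). The exact permutation p was 0.00794, the smallest that 5 arrays against 5 allow. Without wild-type arrays I and K the log2 fold change was -2.31 (limma adjusted p = 0.0142).

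Beyond T1α, differences were small against the spread between lungs. Besides T1α, 1 probe set, annotated to several genes and therefore not named, passed an adjusted p of 0.05 with limma, at signals of 33.9 to 66.0 in T1α(-/-) and 126 to 224 in T1α(+/+) lungs. Of the 4420 genes, 0 passed it. At an unadjusted limma p under 0.05, 76 of the 4420 genes were higher (1.72%) and 73 lower (1.65%) in T1α(-/-) lungs. The 4420 genes leave out those that the paper lists, many of them for differing at E18.5 on these arrays. Their shares are therefore not rates for all genes measured. Over all probe sets tested, the paper's genes included, 5.31% had such a p. The split of these probe sets was 158 higher and 154 lower, and when each array was centered on its median it was 159 higher and 95 lower. In 10 of the 4420 genes (0.226%) every null array lay above every wild-type array, and in 7 (0.158%) every null array lay below. The paper's genes are missing from these 2 shares as well. The median log2 fold change of all genes was 0.04, and 56.4% of them had a value above 0. The single genes and lists that follow are therefore descriptions of direction and size, and none of these genes passed the adjusted test with all arrays.

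The arrays differed among themselves in ways that bear on every list. Wild-type array I had a 25th percentile of signals of 29.8, against 10.1 to 15.0 on the other E18.5 arrays. Its 15 bacterial control probe sets for which no transcript was added had a median of 30.2, against 2.8 to 9.6 elsewhere. The ratio of 3' to 5' signals of GAPDH, a measure of RNA integrity, was highest on null array B (1.72) and wild-type arrays K (1.59) and L (1.43), and 0.962 to 1.16 on the others. The same ratio of β-actin ordered the arrays otherwise. It was highest on null array D (1.91) and B (1.61), 1.46 on L, 1.13 on K and lowest on I (1.08). Each wild-type array correlated at least as closely with some null array (r = 0.866 to 0.943 across the genes tested) as with any other wild-type array (0.856 to 0.917). Among 4420 genes, the number in which 1 array was far from the other 4 of its genotype (gap over range above 0.71) was 127 for B, 110 for I and 76 for K, and 23 to 49 for the other arrays. Limma's array quality weights were lowest for I (0.422), K (0.549) and B (0.597). The part of these differences in the results that follow was not tested beyond leaving the arrays out.

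**Figure D1:**
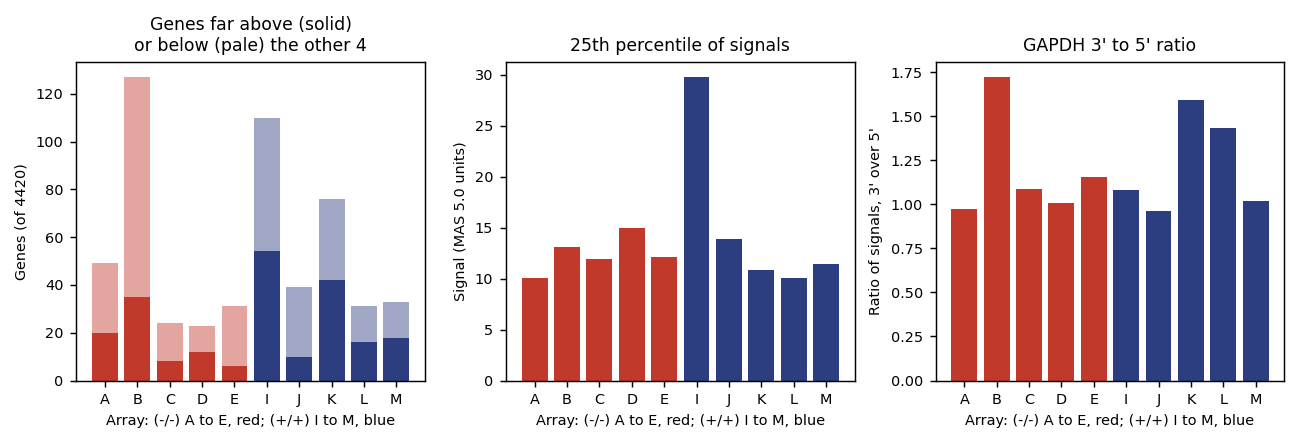
Each bar is 1 array, T1α(-/-) in red and T1α(+/+) in blue: genes far above (solid) or below (pale) the other 4 arrays of the genotype, the 25th percentile of signals in MAS 5.0 units, and the GAPDH 3' to 5' ratio. Null array B and wild-type array I are far from their groups in the most genes (127 and 110), and I alone has a raised low end (29.8).

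Genes of the alveolar epithelium were examined first, because T1α marks 1 of its cell types. Markers of type I cells did not move together. Of 16 tested, 6 were higher and 10 lower, with a median log2 fold change of -0.06, and none had an unadjusted p under 0.05. The median was 0.09 without wild-type array K and -0.18 without I, and without null B or wild-type M it was also above 0 (0.0056 and 0.02). Ahnak, a giant scaffold protein of the cell cortex, had 626, 673, 666, 1085 and 820.3 in T1α(-/-), against 634, 1298, 892, 1982 and 1343 in T1α(+/+) lungs. Wild-type arrays I and K lay within the null range, and the limma p was 0.0521 with all arrays, 0.00675 without I and 0.00126 without I and K (log2 fold change -0.98, adjusted p = 0.151). S100a6, a calcium-binding protein, had a log2 fold change of -0.42 (exact permutation p = 0.222) with all arrays and -0.83 without I and K (limma adjusted p = 0.266). Emp2, a tetraspan membrane protein of type I cells, had signals of 348 to 1153 in T1α(-/-) and 644 to 1110 in T1α(+/+) lungs, and the groups overlapped. Igfbp6, a binding protein for insulin-like growth factor II, gave a log2 fold change of 0.52 with all arrays. Proteins known to bind T1α or to act at the membrane with it (ezrin, radixin, moesin, Cd44 and others) had a median of -0.05 over 8 genes and none with an unadjusted p under 0.05. Centering of the arrays turned the median to 0.0027, and it was 0.03 without null C and 0.03 without wild-type L. Without I and K it was -0.15, with Msn (moesin) and Rdx (radixin) lower at a limma p of 0.00617 and 0.042.

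Type II cell and surfactant genes lay higher in T1α(-/-) lungs. Of 17 on the array, 2 were left out as named by the paper for E18.5. The other genes included 14 that were tested, 13 of them higher and 1 lower, with a median log2 fold change of 0.31. For null lungs at term, a later stage, the paper describes surfactant protein mRNAs and the bronchiolar marker CCSP as normal. Of the 14, 2 were higher at an unadjusted p under 0.05, where 1.72% of all genes were. Mean list levels (log2 signal relative to each gene's mean over the 10 arrays) were 0.28, -0.19, 0.38, 0.17 and 0.20 in T1α(-/-), against -0.26, -0.25, -0.64, 0.36 and -0.04 in T1α(+/+) lungs. Wild-type L reached the level of the highest null lungs and K was the lowest of all. The median stayed above 0 in every omission (0.23 without I and K, 0.27 without K to 0.49 without L). Sftpb, which encodes surfactant protein B, had 6675, 6222, 5842, 3909.6 and 4177 in T1α(-/-), against 2402, 2692, 4696, 5541 and 3297 in T1α(+/+) lungs. The groups overlapped and the log2 fold change was 0.56 (exact permutation p = 0.0873). Muc1, an apical mucin of lung epithelium, had 2837, 3283, 2478, 1450.0 and 1936 in T1α(-/-), against 1170.4, 1252, 1321, 2717 and 1365 in T1α(+/+) lungs. Wild-type L was again the exception, and the exact permutation p was 0.0714, while the limma p was 0.0384 with all arrays, under 0.05 in only 3 of the 10 single omissions, and 0.166 without I and K. The secreted phospholipase Pla2g1b (log2 fold change 0.54) likewise went to p = 0.281 without I and K by limma. The type II transcription factor Cebpa gave 0.45, the phosphate carrier Slc34a2 0.54 and surfactant protein C 0.14 on the log2 scale. Without I and K, none of the 14 kept an unadjusted p under 0.05.

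Airway club and ciliated cell genes had a median of 0.23 over 9 genes (0.11 without I to 0.32 without L), and 0.10 without I and K. Scgb1a1, the secretoglobin that marks club cells, had 2522, 2403, 3068, 3139 and 2840.0 in T1α(-/-), against 1495, 1244, 868, 3147 and 3092 in T1α(+/+) lungs. Wild-type L and M matched the null lungs while I, J and K were low, and the limma p was 0.0519 with all arrays and 0.369 without I and K. Genes of epithelia in general (21 tested, 17 higher) had a median of 0.09 (0.07 without M to 0.20 without K), and 0.20 without I and K. Wild-type K was the lowest array for type II and airway genes (-0.64 and -0.59) and the highest for general epithelial genes (0.23).

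**Figure D2:**
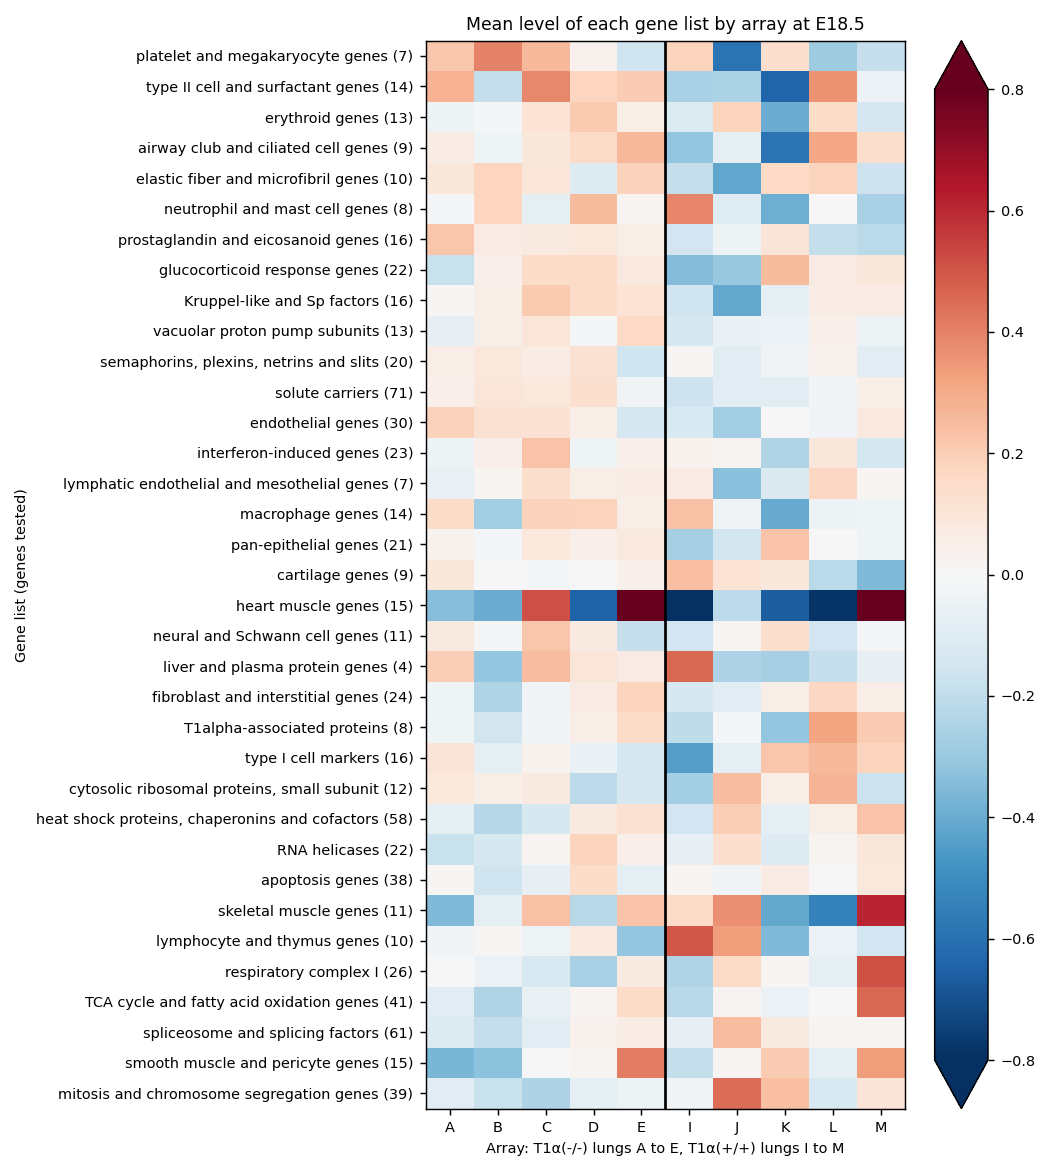
Each row is a gene list (genes tested in parentheses), each column an array, T1α(-/-) A to E left of T1α(+/+) I to M, and the color is the mean over genes of log2(signal + 16) minus the gene's mean over the 10 arrays. Type II and airway lists are low on wild-type K, mitosis genes are high on wild-type J and K, and heart muscle genes on null E and wild-type M run beyond the color scale.

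Genes of mitosis and chromosome segregation (spindle, kinetochore, mitotic kinases and kinesins) had the lowest median of all lists with at least 8 genes tested, -0.26, with 34 of 39 genes lower in T1α(-/-) lungs. Of the 39, 3 had an unadjusted p under 0.05, all lower, where 1.65% of all genes were lower with such a p. The list levels were -0.09, -0.18, -0.25, -0.08 and -0.04 in T1α(-/-), against -0.03, 0.45, 0.24, -0.12 and 0.10 in T1α(+/+) lungs. Wild-type J and K were high, L overlapped the null lungs, and I lay just above the highest of them. The median was -0.28 without I and K, where 32 genes stayed lower, and -0.37 without L to -0.18 without J. Mki67, the proliferation antigen of cycling cells, had 36.0, 79.5, 49.4, 129 and 73.0 in T1α(-/-), against 85.5, 146, 90.4, 113 and 150.5 in T1α(+/+) lungs. Null D lay among the wild-type arrays, and the log2 fold change was -0.63 (exact permutation p = 0.0635, and limma p = 0.0292 with all arrays, 0.0126 without I and K, and above 0.05 without A, C, J or M). Mad2l1, a spindle checkpoint protein, gave -0.51 (exact permutation p = 0.0476, limma p = 0.0411, kept under 0.05 only without E, I or L), and the mitotic kinase Plk1 -0.47 (exact permutation p = 0.0714, and limma p = 0.313 without I and K). A further Plk1 probe set ran the same way (-0.33) and another the opposite way (0.25). Cdc25a, the phosphatase that activates cyclin-dependent kinases, had 61.4, 77.7, 88.8, 90.7 and 82.7 in T1α(-/-), against 158, 111, 102, 101 and 101 in T1α(+/+) lungs. Its groups did not overlap, yet array I stood far above the other wild-type arrays, and the limma p was 0.0366 with all arrays and 0.0841 without I. By contrast, DNA replication genes had a median of 0.03 (30 tested, 18 higher) and cyclins, CDKs and their regulators 0.02 (27 tested, 17 higher), near that of all genes (0.04).

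**Figure D3:**
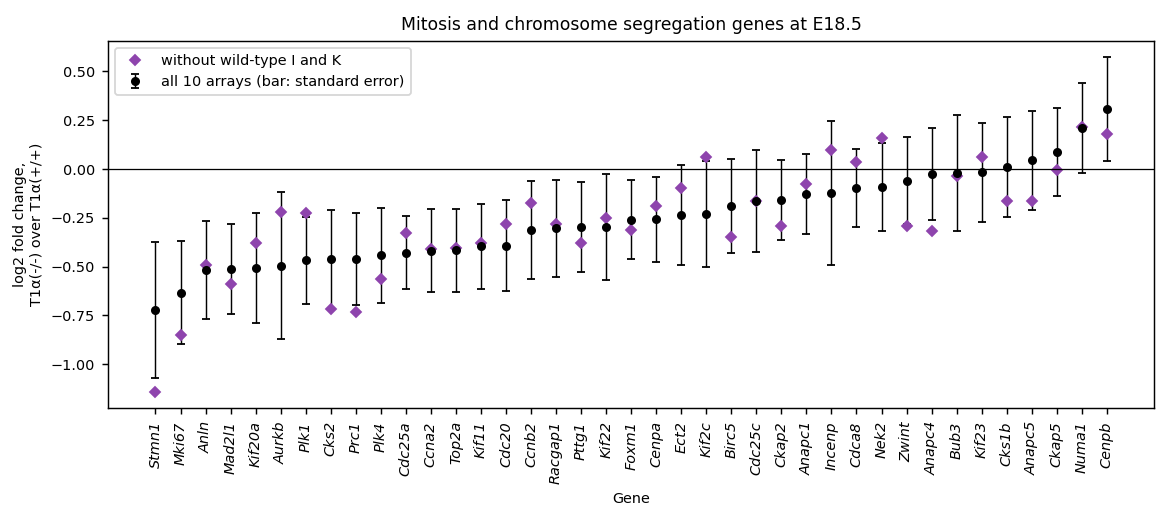
Log2 fold change, T1α(-/-) over T1α(+/+), of the 39 mitosis and chromosome segregation genes, with all 10 arrays (black, bars are standard errors) and without wild-type I and K (violet). Black points run from -0.72 (Stmn1) to 0.31 (Cenpb), with 34 of 39 below 0, and 32 violet points are below 0.

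Promoters of mitotic genes are known for the CCAAT box and for the cell cycle homology region. These 3 are shown because these genes had the lowest p-values of the list with either motif, 250 bases before to 50 after the start, from RefSeq on GRCm38.p6, 5' to 3' on the gene's strand. Capitals mark CCAAT and TTTGAA, read on both strands, and no base was shared by both motifs in these promoters.
Mki67 promoter, chr7:135716330-135716629, minus strand: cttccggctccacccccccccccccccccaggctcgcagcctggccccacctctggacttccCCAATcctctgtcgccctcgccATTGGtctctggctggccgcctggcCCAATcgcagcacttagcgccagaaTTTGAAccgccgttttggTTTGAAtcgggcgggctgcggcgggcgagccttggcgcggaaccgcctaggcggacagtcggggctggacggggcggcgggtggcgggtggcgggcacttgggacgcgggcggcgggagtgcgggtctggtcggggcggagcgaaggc
Cdc25a promoter, chr9:109875329-109875628, plus strand: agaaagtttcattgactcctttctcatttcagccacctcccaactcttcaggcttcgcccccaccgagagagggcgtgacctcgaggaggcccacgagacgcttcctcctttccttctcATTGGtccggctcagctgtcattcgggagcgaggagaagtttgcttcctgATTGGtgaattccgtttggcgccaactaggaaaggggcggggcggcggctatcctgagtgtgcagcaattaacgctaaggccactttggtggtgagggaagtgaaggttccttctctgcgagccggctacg
Plk1 promoter, chr7:122159185-122159484, plus strand: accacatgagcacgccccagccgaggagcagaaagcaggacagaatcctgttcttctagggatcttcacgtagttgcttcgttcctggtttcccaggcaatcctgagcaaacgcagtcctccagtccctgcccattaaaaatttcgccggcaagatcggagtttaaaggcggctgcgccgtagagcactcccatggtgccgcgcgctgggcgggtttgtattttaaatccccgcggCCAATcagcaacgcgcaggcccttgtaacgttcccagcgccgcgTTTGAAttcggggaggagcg
Mki67 held 3 CCAAT and 2 TTTGAA matches, Cdc25a 2 CCAAT matches and Plk1 1 of each, while the promoter of Mad2l1 held neither. Of the 39 list members, 32 had a promoter in the table. CCAAT was found in 68.8% of them, TTTGAA in 59.4% and both in 53.1%, against 37.8%, 11.8% and 5.18% of the promoters of the 3574 tested genes in the table, and 37.9%, 17.9% and 7.10% of all 26742. A match is a run of letters in this window and not a measured binding site.

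Spliceosome and splicing factors had a median of -0.15 (-0.20 without E to -0.08 without B, and -0.09 without I and K), with 43 of 61 lower, of which 3 had an unadjusted p under 0.05 and 1 was higher with such a p. List levels overlapped, and wild-type J was the highest (0.24) and null B the lowest (-0.19). Lsm3, a ring protein of the U6 snRNP, had 75.1, 70.9, 43.5, 102 and 72.9 in T1α(-/-), against 90.8, 233, 83.6, 164 and 161 in T1α(+/+) lungs. Only null D overlapped wild-type I and K, and the log2 fold change was -0.82 (exact permutation p = 0.0318, limma p = 0.00694), or -1.20 without I and K. Zranb2, a splicing regulator, gave -0.76 and Ddx5, an RNA helicase, -0.50 (exact permutation p = 0.0159 and 0.0714), the second with an unadjusted p under 0.05 in 4 of the 10 single omissions. Srpk1, the kinase of SR splicing factors, ran the other way, with 129, 163, 140.1, 123 and 90.2 in T1α(-/-), against 66.3, 27.6, 83.2, 113 and 41.8 in T1α(+/+) lungs (log2 fold change 0.90, exact permutation p = 0.0159). Null E and wild-type L overlapped. RNA helicases as a whole had a median of -0.07 over 22 genes (-0.09 without K to -0.01 without B).

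Heat shock proteins, chaperonins and their cofactors had a median of -0.07 (33 of 58 lower), close to 0 without M (-0.0067) or without C (-0.01) and -0.10 without I and K, with 3 genes lower at an unadjusted p under 0.05 and none higher. This share, 3 of 58, compares with 1.65% of all genes. Hsp90aa1, the inducible cytosolic Hsp90, had 243, 312, 167, 486 and 555 in T1α(-/-), against 372, 1306, 462, 953 and 769 in T1α(+/+) lungs. Null D and E overlapped wild-type I and K, and the log2 fold change was -1.08 (standard error 0.36, exact permutation p = 0.0556 for 5 arrays against 5) and -1.57 without I and K (limma p = 0.00055, adjusted p = 0.116). Hspa9 (mitochondrial Hsp70) gave -0.53 and Cct8, a subunit of the cytosolic chaperonin, -0.59, with an unadjusted p under 0.05 kept in 5 and 4 of the 10 single omissions. Hspd1 (mitochondrial Hsp60) had 217, 165, 142, 293 and 311 in T1α(-/-), against 274, 345, 205, 321 and 1132 in T1α(+/+) lungs, with wild-type M far above the rest, and its second probe set ran the opposite way (0.31). Without I and K, 10 of the 58 genes were lower at an unadjusted p under 0.05, where 5.66% of all genes were. Small-subunit ribosomal proteins (12 tested) had a median of -0.07 (-0.15 without K to 0.03 without J) and none with such a p, and Rps4x went from a limma p of 0.0566 with all arrays to 0.00137 without I, which was its lowest wild-type array (2837).

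Mitochondrial lists of the respiratory chain and of the TCA cycle and fatty acid oxidation were highest on wild-type array M, which also had the highest heart muscle level. Complex I of the respiratory chain had a median of -0.14, with 19 of 26 genes lower, and genes of the TCA cycle and fatty acid oxidation -0.15, with 29 of 41 lower. Complex I levels were 0.00, -0.04, -0.12, -0.26 and 0.07 in T1α(-/-), against -0.24, 0.15, 0.01, -0.07 and 0.51 in T1α(+/+) lungs, and TCA cycle levels reached 0.46 on M and 0.15 on E, the highest of each genotype. Without M, the medians were 0.03 and 0.0007, so that neither list was below 0, and the TCA cycle median was also -0.07 without B, -0.10 without K and -0.23 without I. Heart muscle genes had levels of -0.34, -0.40, 0.52, -0.65 and 1.12 in T1α(-/-), against -1.04, -0.21, -0.66, -0.79 and 2.46 in T1α(+/+) lungs. Myl7, the atrial myosin light chain, had 443, 234, 1172, 365 and 1852 in T1α(-/-), against 243, 471, 224, 372 and 2238 in T1α(+/+) lungs, high on C and E of the null and M of the wild-type lungs. Pulmonary veins of mice are sheathed in heart muscle and atria lie against the lung, and the part of heart RNA in the mitochondrial lists was not tested. The median of the heart list itself was 0.05 with all arrays, -0.51 without I and K, and 0.76 without M. Of its 15 genes tested, only Gata4 had an unadjusted p under 0.05, a transcription factor that was higher in T1α(-/-) lungs (log2 fold change 0.69). Its highest wild-type array was M (129.5), but its lowest null array was E (92.4). The limma p was 0.0125 with all arrays, 0.00153 without E and 0.0993 without I and K.

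Ndufa5, a subunit of complex I, had 204, 189.9, 184, 202 and 234 in T1α(-/-), against 312, 527, 243, 344 and 681 in T1α(+/+) lungs, and the genotypes did not overlap. The log2 fold change was -0.91 with all arrays and -1.24 without I and K (limma adjusted p = 0.0747). The exact permutation p, 0.00794, follows from the lack of overlap. M was its highest wild-type array (681), followed by J (527). E was the highest null array (234) but lay below every wild-type array. The log2 fold change was -0.72 without M. Ndufv3 (-0.50) kept its unadjusted p under 0.05 in 4 of the 10 single omissions, and Ndufs1 (-0.41) and the pyruvate dehydrogenase subunit Pdha1 (-0.52) gained one without I.

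Solute carriers, the largest family of membrane transporters, had 53 members higher in T1α(-/-) lungs. Of 145 on the array, 3 are named by the paper, 71 were tested, and 18 were lower, where 56.4% of all genes were above 0. The median was 0.16, and between 0.12 and 0.19 in every omission. At an unadjusted p under 0.05, 3 genes were higher and none lower, where 1.72% of all genes were higher and 1.65% lower. Levels were 0.04, 0.10, 0.08, 0.13 and -0.03 in T1α(-/-), against -0.17, -0.09, -0.09, -0.02 and 0.05 in T1α(+/+) lungs. Null E and wild-type M and L overlapped. Slc48a1, a heme transporter, gave 0.59, and the glycine transporter Slc6a9 0.44 (exact permutation p = 0.0556 and 0.0318). Slc9a3r2 (0.41, exact permutation p = 0.0238) carries the family's symbol but encodes a PDZ scaffold that binds ezrin. All 3 lost an unadjusted p under 0.05 without I and K. In that fit 2 of the 71 were higher and 4 lower with such a p, where 3.3% of all genes were higher and 5.66% lower. Subunits of the vacuolar proton pump, which acidifies lysosomes and lamellar bodies, had a median of 0.18 (8 of 13 higher), with Atp6v0e2 higher (0.53) and Atp6v1d lower (-0.60), and 0.07 without I and K, and each call was kept in only 3 of the 10 single omissions. Antioxidant and glutathione genes were singled out after their values were seen. Of the 110 lists with at least 8 genes tested, theirs was the only 1 whose levels did not overlap between genotypes, by a narrow gap. The levels were 0.03, 0.04, 0.05, 0.07 and 0.15 in T1α(-/-), against -0.07, -0.10, -0.18, -0.0045 and 0.002 in T1α(+/+) lungs. Of these 42 genes 33 were higher, none at an unadjusted p under 0.05, and the median of 0.13 lay between 0.13 and 0.17 without each array and was 0.10 without I and K.

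Vascular and blood lists also had medians above 0. Endothelial genes had a median of 0.15 (22 of 30 higher, 0.10 without J to 0.23 without E), and 0.24 without I and K. Gja4 (connexin 37), a gap junction protein of arterial endothelium, had 139, 161, 140.3, 141 and 120.3 in T1α(-/-), against 50.7, 67.3, 75.0, 89.6 and 79.9 in T1α(+/+) lungs. The genotypes did not overlap, which fixes the exact permutation p at 0.00794, and no array stood far from its group. The log2 fold change was 0.83 (standard error 0.18, limma adjusted p = 0.318), or 0.72 without I and K. The adhesion molecule Icam2 gave 0.63 and the receptor Tie1 0.40, both overlapping. Pecam1 (-0.17), Tek (-0.22), Emcn (-0.39) and Cd34 (-0.24), also endothelial, were lower. Lymphatic endothelial and mesothelial genes (7 tested), of interest because T1α is also a lymphatic marker, had a median of 0.14 (0.07 without B to 0.23 without I), and none had an unadjusted p under 0.05. Platelet and megakaryocyte genes, whose receptor Clec1b binds T1α, were higher in 7 of 7 tested (median 0.32, 0.13 without L to 0.35 without E, and 0.50 without I and K). Of 20 on the array, 13 did not pass the filter. List levels overlapped, with null E at -0.16, wild-type I and K at 0.18 and 0.13, and wild-type J lowest at -0.59. Nbeal2, a granule protein of platelets, had 206, 206, 233, 122 and 121 in T1α(-/-), against 56.4, 33.3, 209.7, 169 and 98.0 in T1α(+/+) lungs. Its groups overlapped, with wild-type K and L within the null range, and the limma p was 0.05 with all arrays and under 0.05 in 4 of the 10 single omissions. Erythroid genes had a median of 0.25, which was 0.07 without either I or K and -0.0042 without both.

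Mesenchymal and muscle lists had no common direction. Fibroblast and interstitial genes had a median of -0.0004 (12 of 24 higher, -0.03 without J to 0.06 without L), turning above 0 when arrays were centered (0.05). S100a4, a calcium-binding protein of fibroblasts and macrophages, was the one member with an unadjusted p under 0.05 (-0.56), kept in 4 of the 10 single omissions. Smooth muscle and pericyte genes had a median of -0.17 (9 of 15 lower, -0.24 without I to -0.04 without M), and -0.25 without I and K. Tpm2 (smooth muscle tropomyosin) had 9.50, 47.1, 58.9, 11.9 and 55.8 in T1α(-/-), against 83.9, 73.3, 72.7, 36.7 and 73.2 in T1α(+/+) lungs, with wild-type L overlapping, and its unadjusted p under 0.05 was kept in 4 of the 10 single omissions. Elastic fiber and microfibril genes had a median of 0.22 (8 of 10 higher, 0.13 without J to 0.27 without D). Ltbp3, which tethers latent TGF-β to microfibrils, had 121, 135, 96.6, 90.6 and 96.5 in T1α(-/-), against 32.3, 32.6, 107, 82.6 and 68.1 in T1α(+/+) lungs. Only wild-type K overlapped the null lungs, and the limma p was 0.0166 with all arrays and 0.00319 without K. Among markers of other tissues, skeletal muscle genes had a median of -0.13 over 11 genes (-0.28 without C to 0.06 without M) and cartilage genes 0.05 over 9 (0.02 without M to 0.26 without I). Neural and Schwann cell genes had 0.04 over 11 (0.0089 without A to 0.16 without E) and liver genes 0.0019 over 4 (-0.11 without L to 0.14 without B). The cartilage gene Chad (0.49) and the apolipoprotein gene Apoc1 (0.63) had an unadjusted p under 0.05. Chad rested on null B (380.0, against 179 to 203 on the other null arrays), and it kept its call only without C, D or K. Apoc1 lost it without C, J or K, and also without both I and K.

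Immune lists were small. Macrophage genes had a median of 0.11 over 14 genes (0.06 without A to 0.20 without B) and neutrophil and mast cell genes 0.18 over 8 (0.09 without K to 0.35 without I), none with an unadjusted p under 0.05. Macrophage, erythroid and lymphoid levels were all low on wild-type K (-0.40, -0.40 and -0.36), and lymphoid genes were highest on wild-type I and J (0.50 and 0.34). Of 39 lymphocyte and thymus genes on the array, 10 were tested, and their median was -0.13, 0.05 without I, -0.0028 without E and -0.0036 without I and K. Blnk, an adaptor of B cell receptor signaling, was higher in T1α(-/-) lungs (log2 fold change 0.70, exact permutation p = 0.0318). Interferon-induced genes had a median of 0.15 (15 of 23 higher), which was 0.06 without M and 0.07 without I and K. Iigp1, an interferon-inducible GTPase, ran the other way (-0.80), with a limma p of 0.0255 with all arrays and 0.0534 without I, and above 0.05 also without D or J. Apoptosis genes had a median of -0.10 (23 of 38 lower) with none at an unadjusted p under 0.05, 0.0008 without null B and -0.0024 without I and K.

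Signaling and transcription factor lists were mostly near 0. Semaphorins, plexins, netrins and slits, the guidance cues and their receptors, had a median of 0.16 (13 of 20 higher). Yet both members with an unadjusted p under 0.05 were lower, where 1.65% of all genes were lower with such a p. Plxna2 had 28.3, 9.40, 38.8, 41.3 and 41.5 in T1α(-/-), against 55.5, 48.5, 56.9, 61.8 and 73.6 in T1α(+/+) lungs, without overlap (log2 fold change -0.71, exact permutation p = 0.00794). Sema3a, a secreted guidance cue, gave -0.66 (exact permutation p = 0.0476, and limma p = 0.0859 without I), while Plxna3, a related receptor, gave 0.42 (exact permutation p = 0.0794). Prostaglandin and eicosanoid genes were higher in 14 of 16 (median 0.18, 0.11 without B to 0.23 without K, and 0.28 without I and K). The cyclooxygenase gene Ptgs1, which the paper reports as reduced at E18.5 in mRNA and protein, was not analysed here. It is not among these 16 genes. Glucocorticoid response genes, of interest because glucocorticoids mature the fetal lung, had a median of 0.18 (15 of 22 higher), 0.06 without I and 0.06 without J, and none with an unadjusted p under 0.05. Krüppel-like, Sp and BTB zinc finger factors were higher in 13 of 16 (median 0.18), and the median was 0.06 without wild-type J, where their level was lowest (-0.41). The other 78 lists with at least 8 genes tested had medians from -0.06 to 0.14.

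Among all genes, 15 had genotypes that did not overlap and an unadjusted limma p under 0.05, 7 lower and 8 higher in T1α(-/-) lungs. Vcan (versican), a large chondroitin sulfate proteoglycan of developing matrix, had 7.40, 31.1, 9.60, 20.1 and 53.1 in T1α(-/-), against 98.5, 151, 108, 65.4 and 59.7 in T1α(+/+) lungs. Null E came closest to the wild-type arrays L and M, and the log2 fold change was -1.54 (standard error 0.32, limma adjusted p = 0.255), or -1.45 without I and K. Vav1, a guanine nucleotide exchange factor of blood cells, had 37.5, 30.1, 32.4, 28.0 and 27.2 in T1α(-/-), against 94.6, 180.5, 45.2, 118 and 227 in T1α(+/+) lungs. The null arrays were tight and K was the lowest wild-type array, and the log2 fold change was -1.51 (adjusted p = 0.23 by limma) with all arrays and -1.98 (adjusted p = 0.00789) without I and K. Its probe set carries the suffix of those designed under relaxed rules. Both other Vav1 probe sets, which did not pass the filter, had 6.30 to 29.3 and 2.90 to 13.8 in T1α(-/-), against 14.8 to 68.7 and 2.40 to 23.1 in T1α(+/+) lungs. Mesp2, a transcription factor of somite formation, gave -0.89 and the mRNA export factor Sarnp -0.77.

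Of the 8 higher genes, Tnfaip2, a gene induced by tumor necrosis factor, had 129, 114, 121, 133 and 148 in T1α(-/-), against 46.7, 47.6, 65.9, 60.9 and 102 in T1α(+/+) lungs. Ifitm10, a transmembrane protein named for its interferon-induced relatives, had 107, 189, 169, 163 and 127 in T1α(-/-), against 75.4, 49.0, 106, 58.9 and 80.1 in T1α(+/+) lungs. In both, a single wild-type array (M or K) neared the null range, and the log2 fold changes were 0.88 and 0.91 (limma adjusted p = 0.368 and 0.438). P2rx6, a subunit of ATP-gated channels, gave 0.84 with 61.0 to 89.5 in T1α(-/-) and 29.6 to 59.0 in T1α(+/+) lungs. It passed the filter only through the T1α(-/-) lungs. Zbtb2 (0.83) is a zinc finger repressor. Gpam, the mitochondrial enzyme that starts glycerolipid synthesis, gave 0.67, with null B (1063) above all other arrays and wild-type J (248) below. Axin1 (0.66) is a scaffold of the β-catenin destruction complex and Septin11 (0.45) a cytoskeletal GTPase. The exact permutation p of each of the 15 genes was 0.00794, the smallest 5 arrays against 5 allow. Genes without overlap must reach this value, so it restates how they were picked and is no added support.

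**Figure D4:**
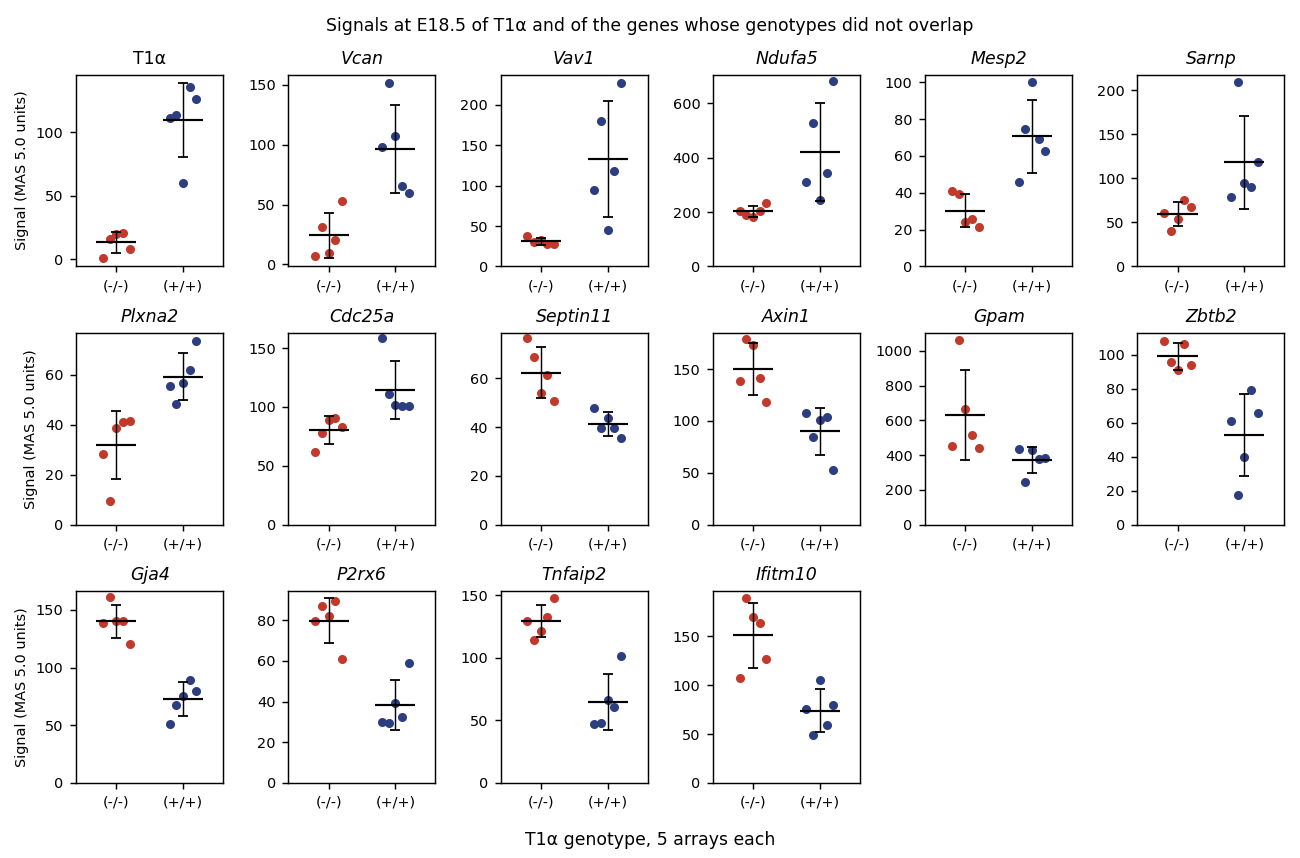
Signals (MAS 5.0 units) of T1α and of the 15 genes whose genotypes did not overlap at an unadjusted limma p under 0.05, T1α(-/-) in red left of T1α(+/+) in blue, with 1 point per array, the mean as a line and the SD as a bar (n = 5 each). In Vav1 and Ndufa5 the null arrays are tight and the wild-type arrays spread, with K lowest.

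The weight of single arrays was measured by leaving each out. Over the 110 lists with at least 8 genes tested, the median list moved by 0.0338 on the log2 scale without I, 0.0345 without K and 0.0522 without both, against 0.0233 to 0.0328 without each of the other 8 arrays. By that measure I and K stood only just above B (0.0328) and J (0.0325). More list medians turned sign without J (24), B (21) and M (18) than without I (16) or K (16). Of 35 lists with a median beyond 0.1 either way, 1 turned sign without I, 0 without K and 3 without both, against 3 without M. Of the same 35, the median turned sign or changed over 1.5 times in 14 without I and 8 without K, against 15 without C, 14 without J, 12 without B and 5 to 10 without each of the other 5 arrays. Heart muscle moved most without I and K (by 0.556), and more without M (by 0.716).

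Counts of genes responded more than list medians. Without I, 106 genes were higher (2.4%) and 141 lower (3.19%) at an unadjusted p under 0.05. Without K, 178 were higher (4.03%) and 139 lower (3.14%), and without both 146 were higher (3.3%) and 250 lower (5.66%), although fewer arrays were compared. Over all probe sets the count was 312 with all arrays and 598 without both, and 205 probe sets were in both sets. Of the 15 genes without overlap, 14 kept an unadjusted p under 0.05 without I (not Cdc25a), 14 without K (not Septin11) and 14 without both (not Cdc25a). Of all 142 genes named by the rules, T1α included, 45 had such a p with all arrays. Without both arrays, 13 of these 45 lost it and 24 others gained it. Only 18 of the 45 kept it whichever single array was left out, among them Vcan, Vav1, Ndufa5, Gja4, Tnfaip2, Ifitm10, Lsm3, Srpk1 and Hsp90aa1.

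Besides Vav1, 2 genes not named by rule passed an adjusted p only once arrays were left out, and were singled out after their values were seen. Gimap4, a GTPase of lymphocytes, had 130.1, 142, 110.3, 170.4 and 143 in T1α(-/-), against 130.1, 352, 115, 448 and 354 in T1α(+/+) lungs. Wild-type I and K lay within the null range and J, L and M far above it, so that the adjusted p was 0.858 with all arrays and 0.0173 without I and K (limma). Atp5mpl, a small subunit of mitochondrial ATP synthase, had 255, 251, 128, 218 and 274 in T1α(-/-), against 244, 902, 332, 501 and 1000.2 in T1α(+/+) lungs. Wild-type I lay within the null range and K was the next lowest of its group. Its adjusted p was 0.792 with all arrays and 0.0413 without I and K by limma.

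**Figure D5:**
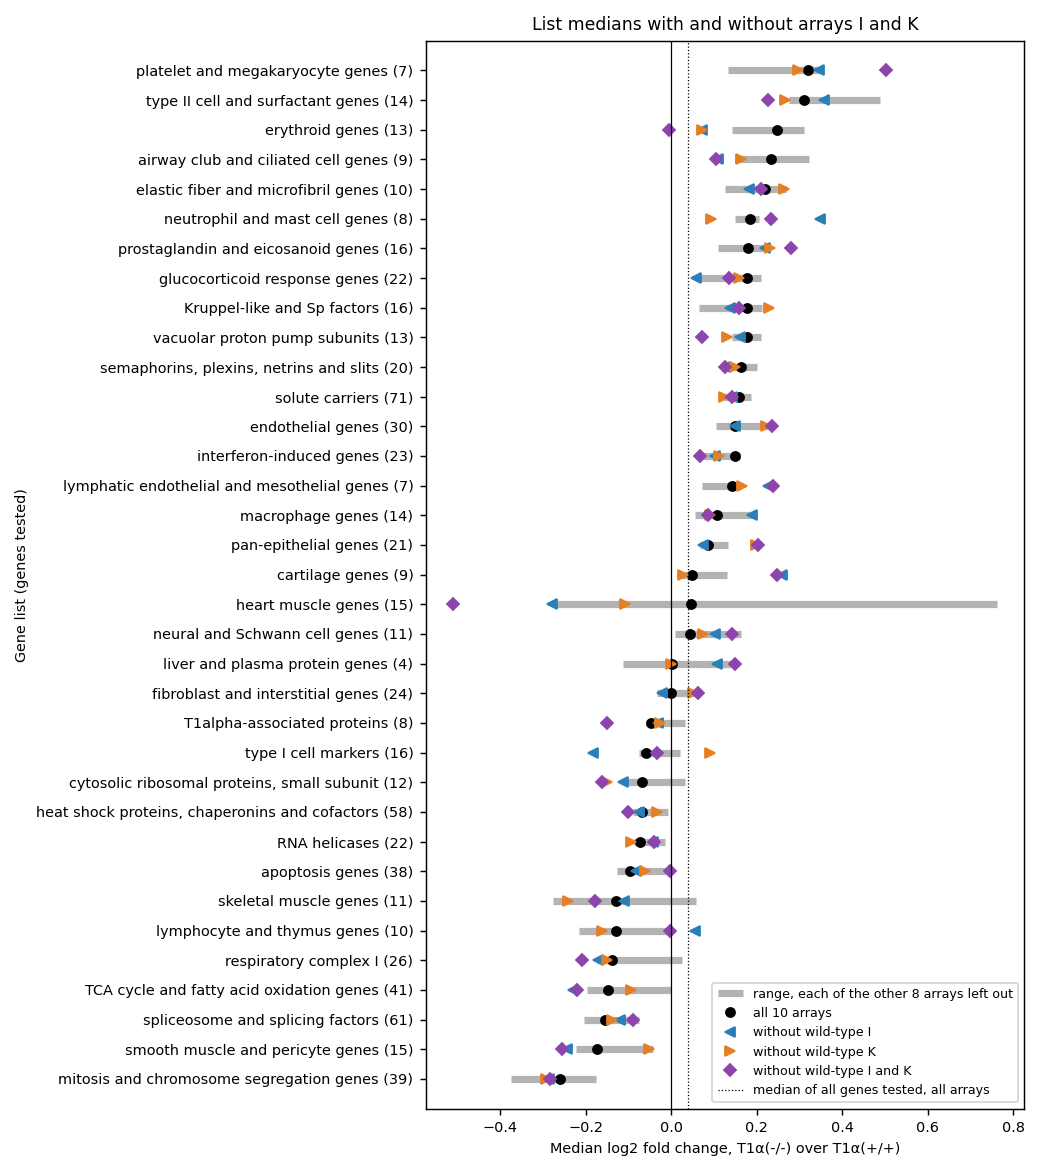
Median log2 fold change, T1α(-/-) over T1α(+/+), of each described list (genes tested in parentheses): with all arrays (black), without wild-type I, K or both (colored), and the range over omission of each other array (gray), with the dotted line at the median of all genes (0.04). Mitosis, type II, solute carrier and elastic fiber lists stay on 1 side of 0 in every omission, as do many other lists shown, among them endothelial and splicing genes. Heart muscle genes run from -0.51 to 0.76.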

How the data were processed

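Deposited values are linear intensities, 1 per probe set and array, which the authors obtained by scaling each of 16 arrays in MAS 5.0. Present calls were not used. Arrays were grouped by title, and the 10 arrays at E18.5 were fitted by limma 3.58.1 (R 4.3.3; lmFit, then eBayes with an intensity trend) on log2(signal + 16), with 8 residual degrees of freedom, 2-sided p-values and Benjamini-Hochberg adjustment over 5879 probe sets. The filter level, 53.4, stands in for the methods' present calls. Single genes also had a 2-sided exact permutation test of mean log2 values. Sequences and symbols came from RefSeq tables of GRCm38.p6, and 10833 probe sets had 1 symbol, 396 several and 1193 none. A gene was represented by its tested probe set of highest mean. Genes of the paper's lists and others that it names for E18.5 were left out, but not the surfactant proteins that it describes at term. The members and lists were chosen with earlier results of these data known. Named are T1α, the 12 largest changes each way without overlap at an unadjusted p under 0.05, and up to 4 members of lowest p in each described list; of lists other than cell markers, the 8 highest and 8 lowest medians were described. The fit was tested on simulated signals. Alternatives were quantile normalization, median centering, no pseudocount or 64, no filter or one at 25%, all arrays in 1 fit, no trend, array weights, the methods' t-test on signals, Xist as a covariate, all probe sets, the paper's genes kept, and arrays left out. Python 3.11.15 with pandas 2.3.3, numpy 2.4.6 and matplotlib 3.10.9 made the counts and plots. The number of arrays limits the precision.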

Additional observations from a re-analysis of the deposited data

Results flagged for a closer look

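Within groups of 5 arrays, 1 array was far from the other 4 (gap over range above 0.71) in 19 of the 212 groups of values examined. Independent normal values pass this cutoff in about 1 group in 20. The genes and lists were picked from these data and share members, so 19 cannot be set against that rate. On wild-type array I these were the 25th percentile of signals (29.8), the median signal (61.0), the median of the bacterial controls (30.2), the level of liver and plasma protein genes (0.46) and Cdc25a (158.1). On wild-type array M they were heart muscle genes (2.46), Myl7 (2238), Hspd1 (1132), Ndufs1 (366.8) and Plxna3 (104). On wild-type array L they were Muc1 (2717) and Tpm2 (36.7). On null array B they were the GAPDH 3' to 5' ratio (1.72), the number of genes far from the other null arrays (127), Chad (380.0) and macrophage genes (-0.28), on null array A S100a4 (81.4) and prostaglandin and eicosanoid genes (0.22), and on null array E semaphorins, plexins, netrins and slits (-0.16). Of 5879 probe sets, 0 passed an adjusted p of 0.05 with limma in the test of whether the genotype difference changed between E18.5 and term, and 85 had an unadjusted p under 0.05. No alternative tool was run for it.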

How the results depend on the processing

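The count of probe sets at an unadjusted p under 0.05, 312, was 490 with no filter, 177 with the filter at 25%, 484 with array weights, 598 without wild-type arrays I and K, and 208 to 509 without each array in turn (509 without K, 208 without J). The filters change how many probe sets were tested, and for the others the cause was not tested. The count at an adjusted p under 0.05, 2, was 1 with no pseudocount, 1 with the filter at 25%, 0 with the methods' t-test (341 at an unadjusted p under 0.05), 5 without I and K, and 0 to 3 without each array (0 without L). T1α had a log2 fold change of -3.45 (adjusted p = 0.211) with no pseudocount, -3.02 (0.308) with the methods' t-test and -2.27 to -1.93 without each array, with an adjusted p of 0.0615 without L. Of 110 lists, 79 had a median above 0, and 67 to 96 over all alternatives. The number of lists that turned sign without I and K, 20, was 32 with centered arrays and 8 with array weights. Described lists were also set against the SD of their level between arrays of a genotype, pooled over both genotypes. Among those whose median exceeded it, erythroid genes turned to -0.0042 without I and K. Apoptosis genes (-0.1271 to 0.0008 without each array) turned to 0.0008 without null array B. Myl7 (0.37) turned to -0.2635 without I and K and ran from -0.0199 (without null E) to 0.929 (without M). Described list medians were within 1 such SD of their value with all arrays in 832 of 840 cases. This is a wide margin, since only 23 of the 110 list medians exceeded their SD. A list could turn sign within it, as heart muscle genes did (SD 1.14, 0.05 with all arrays and -0.51 without I and K). No paired analysis was possible because the genotypes share no replicate labels.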
